A study of Spodoptera frugiperda with 12 samples.

Results

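m6A peaks that stretch over 1 to 10 kb of genome were examined in embryos of the fall armyworm, the noctuid moth *Spodoptera frugiperda*. They were chosen by their span alone, the deposited end minus the deposited start, which had to be above 1000 and at most 10000 bases. The 6 deposited peak lists held 12509 such peaks among 331440, and 12504 of them lay on nuclear sequences. The groups were embryos taken 24 h after oviposition and embryos taken 2 h after oviposition, from a population kept in the laboratory with larvae on artificial diet, and the labels name no strain, drug or genetic change for either. Each time had 3 samples captured with an antibody against m6A, each with its own peak list, and 3 uncaptured inputs that were not analysed here. The labels say that many embryos were collected at each time, and do not say whether the 3 samples were separate collections, so p-values measure a spread that may be technical.

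N6-methyladenosine (m6A) is a methyl mark on adenosines of messenger RNA. A writer complex with METTL3 and METTL14 sets it, and proteins with a YTH domain bind it and affect splicing, translation and decay of the transcript. An early insect embryo runs first on messenger RNA laid down by the mother and later on its own transcription. A mature transcript lacks its introns, so a stretch of enriched RNA that is short in the transcript can cover a long piece of genome when it crosses a splice junction. The spans below are therefore genomic extents, not lengths of RNA. No genome or gene annotation of the lists' nuclear sequences was used, so no nuclear gene is named and no sequence is printed, and whether a position is exonic, intronic or in a UTR is not analysed here. Positions count from 1, with sequence names and strands as deposited. The protocol does not describe the library kit as marking strand, which bears on every 5′ and 3′ below. In whole embryos, fewer cells of a type and less methylated RNA per cell cannot be told apart.

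The lists of 24 h embryos held 56679 to 58161 peaks of all spans, and those of 2 h embryos 51157 to 55116. Read numbers are not part of the lists, and the depth is therefore unknown. The score in each list is the authors' value per peak, of unstated scale, and it was used only as a percentile within its own list. Peaks of 1 strand rarely overlapped within a list: from 10 to 16 of the 1 to 10 kb peaks per list overlapped another peak on their own strand, and 13 to 23 overlapped one on the opposite strand.

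Peaks of 1 to 10 kb made up nearly the same small share of the lists at both times. The 24 h lists held 2266, 2272 and 2022 of them, and the 2 h lists 2074, 2034 and 1841. The first and second 24 h lists lay above every 2 h list, and the remaining 24 h list lay below 2 of the 2 h lists. The mean was 2187 ± 143 at 24 h and 1983 ± 125 at 2 h (n = 3 each, SD), a difference of 204 that the spread between lists covered (two-sided exact permutation test, p = 0.3 and 0.533 after adjustment over 4 comparisons of the times). With 3 lists against 3 this test cannot go below 0.1. As a share of all peaks in the list they were 3.82% ± 0.221 at 24 h and 3.72% ± 0.145 at 2 h (n = 3 each, SD), again not separated (two-sided exact permutation test, p = 0.7, adjusted p = 0.7). The difference in share was 0.0947 percentage points, and -0.202 once only the top-scoring 50% of every list was kept. Their summed span was 6.36 ± 0.426 Mb at 24 h and 5.61 ± 0.328 Mb at 2 h (n = 3 each, SD), without overlap of the lists. It made up 21.0% ± 0.194 of the summed span of all peaks at 24 h and 23.6% ± 0.647 at 2 h (n = 3 each, SD), and peaks over 10 kb, which enter that total, numbered 505 to 593 per list at 24 h and 362 to 416 at 2 h.

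Spans within the class were skewed to its short end in all 6 lists, and ran slightly longer in the 24 h lists. The median span was 2046.5, 2014 and 2042 bases in the 24 h lists and 1992.5, 1948 and 1984 bases in the 2 h lists, and those of the times did not overlap. It averaged 2034 ± 17.6 bases at 24 h and 1975 ± 23.6 bases at 2 h (n = 3 each, SD), and the shortest was 1001 bases in each of the 6 lists. Of the class, 49.3% at 24 h and 50.4% at 2 h spanned up to 2000 bases. Spans over 5000 bases formed 16.0% ± 0.485 at 24 h and 14.7% ± 0.373 at 2 h (n = 3 each, SD), again without overlap of the lists. The lower bound is not a natural edge: 71 to 114 peaks per list lay within 50 bases above 1000, and 98 to 117 within 50 bases below it. The upper bound likewise cut through a tail, with 19 to 28 peaks per list in the last 500 bases below 10000 and 11 to 25 in the first 500 above. Since span chose these peaks, spans are given as a description with no test.

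**Figure D1:**
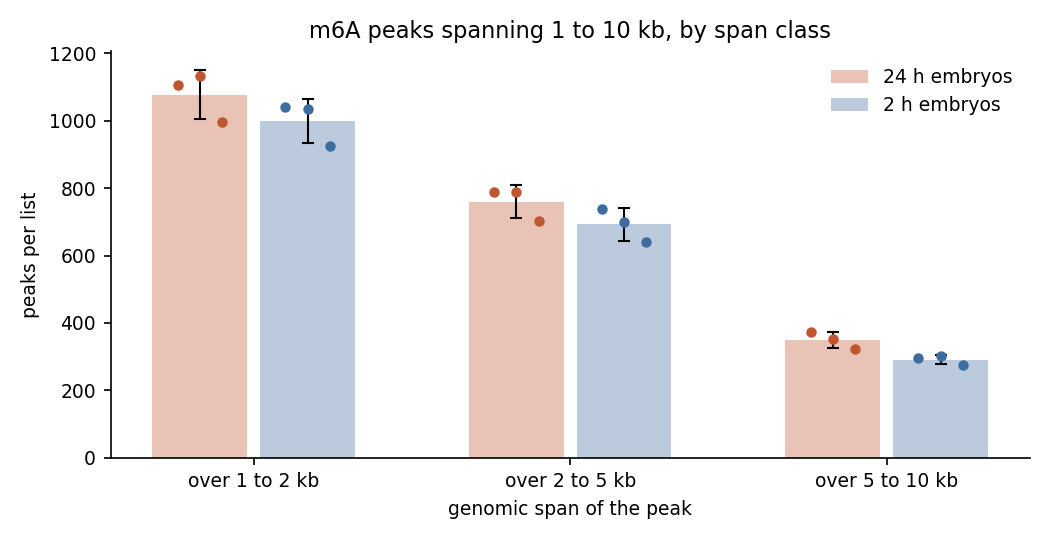
Number of peaks per list (y axis) in 3 classes of genomic span (x axis) for 24 h and 2 h embryos; bars are means, error bars SD and points the 3 lists of a time. Spans over 5000 bases averaged 350 per list at 24 h and 291 at 2 h, and in the other classes the points of the times overlapped.

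The borders of these long spans differed between lists mostly by whole steps of 25 bases. Spans over 1 kb were whole multiples of 25 bases in 3.99% ± 0.316 of cases (SD, n = 6 lists), near the 4% that arbitrary lengths give, whereas 96.3% ± 0.0599 of the peaks up to 200 bases were. There were 15415 pairs of 1 to 10 kb peaks from different lists that shared at least 50% of both spans on 1 strand, and 3723 of them (24.2%) were identical at both borders. Of the 7868 pairs whose starts differed, 91.2% differed by a whole number of 25-base steps, and 4612 differed by 1 step. Of the 8086 pairs whose ends differed, 91.6% differed by whole steps, and 4809 by 1 step. In 88.6% of the 11692 pairs that were not identical, both borders differed by whole steps or not at all, so the odd remainder of the span over 25 was shared by the pair. The share was 90.8% among pairs of 24 h lists, 89.1% among pairs of 2 h lists and 87.7% between the times. Pairs are not independent of each other, since a peak can enter several.

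**Figure D2:**
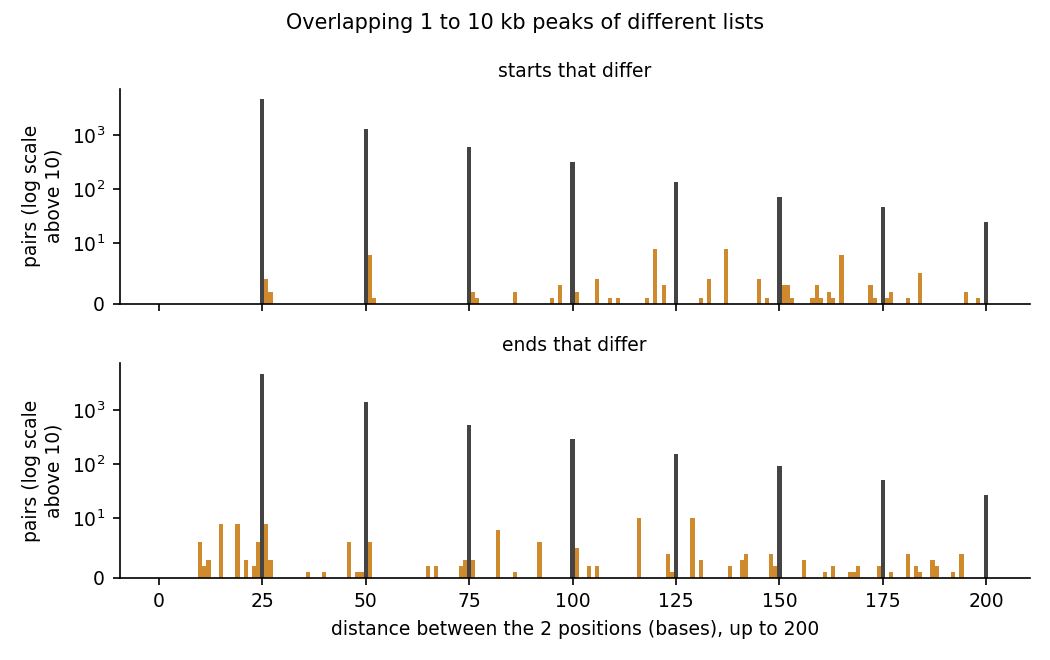
Distance in bases (x axis, up to 200) between the starts (top) and the ends (bottom) of overlapping 1 to 10 kb peaks from different lists; the y axis counts pairs, is linear up to 10 and logarithmic above, and dark bars mark whole 25-base steps. The bars at 25 bases hold 4612 pairs for starts and 4809 for ends, and no distance between steps holds more than 10 pairs.

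Exact repetition of a span from one list to another was common at 2 h and less so at 24 h. The 12509 peaks had 9922 distinct combinations of sequence, start, end and strand. Of these, 8131 (81.9%) occurred in 1 list, 1239 in 2 lists, 384 in 3 lists, 112 in 4 lists, 36 in 5 lists and 20 in all 6 lists. The share of a list's spans found again, identical, in at least 1 of the other 5 lists was 27.4%, 29.7% and 31.7% in the 24 h lists and 40.6%, 40.3% and 42.4% in the 2 h lists. The 24 h values all lay below the 2 h values. This was not tested, because a repeat enters the value of both lists that hold it. A single border repeated more often than both: the start recurred for 48.5% ± 2.38 of the spans at 24 h and 62.8% ± 1.17 at 2 h, with n = 3 each and SD as the error. The end recurred for 45.0% to 50.9% in the 24 h lists and 62.9% to 65.2% in the 2 h lists. Peaks up to 200 bases repeated exactly a little more often in each time, 33.6% ± 1.91 at 24 h and 44.6% ± 0.887 at 2 h (n = 3 each, SD). Of their distinct spans, 79.9% occurred in 1 list and 0.354% in all 6 lists, the latter against 0.202% of the 1 to 10 kb spans. When an overlap of 50% of both spans counted as a repeat, 71.7% ± 3.07 of the 1 to 10 kb peaks at 24 h and 85.0% ± 1.20 at 2 h had a counterpart in another list (n = 3 each, SD).

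Pairs of lists showed the same order. A pair of 24 h lists shared 242 to 279 identical spans, 10.7% to 13.3% of either list. A pair of 2 h lists shared 402 to 425, or 19.4% to 23.1%. A 24 h list and a 2 h list shared 153 to 214, or 6.75% to 10.6%. The ranges of the 3 kinds of pair did not overlap. Counted over the spans that either list of a pair held, identical spans averaged 6.41% in pairs of 24 h lists, 11.7% in pairs of 2 h lists and 4.72% between the times. For peaks up to 200 bases the averages were 7.03% in pairs of 24 h lists, 12.1% in pairs of 2 h lists and 6.66% between the times. For these short peaks the range between the times, 5.87% to 7.31%, overlapped that of pairs of 24 h lists, 6.71% to 7.51%.

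The 20 spans found identically in all 6 lists were mostly strong peaks. Their spans ran from 1141 to 5615 bases with a median of 1890.5, 11 lay on the plus strand and 9 on the minus strand, and they were spread over 18 sequences. The lowest within-list score percentile of each was 30.5 to 99.3, with a median of 92.3. In 2 of them the score was infinite in all 6 lists. These were a plus-strand span of 5615 bases on NC_049711.1 from 3277519 to 3283133, the 5′ end of its group of neighbouring peaks, and a plus-strand span of 2948 bases on NC_049717.1 from 776454 to 779401. The next 3 in rank had an infinite score in all lists except the third 2 h list. They were NC_049734.1 from 6459138 to 6461000 (1863 bases, plus strand), NC_049725.1 from 2907724 to 2910468 (2745 bases, minus strand) and NC_049737.1 from 6584592 to 6586548 (1957 bases, plus strand), which stood in the third 2 h list at percentiles of 99.0, 98.9 and 98.8.

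The mitochondrial transcript of *ND4*, which encodes a subunit of respiratory complex I, carried the 5 mitochondrial members of the class. The mitochondrial gene was identified by position from a RefSeq table. Here no intron is crossed, so the span is also a length of RNA. On the minus strand of the mitochondrial sequence NC_027836.1 the peak had its 3′ border at 8194, a gene border of *ND4*, in all 6 lists. In the first and second 24 h lists its 5′ border lay at 9468 and 9493, with spans of 1275 and 1300 bases. In the 3 lists of 2 h the 5′ border lay at 9468, 9443 and 9443, with spans of 1275, 1250 and 1250 bases. The third 24 h list had 3 shorter peaks over the gene instead, of 725, 425 and 50 bases, so its absence from the class was a break in the peak and not a missing peak. The peak from 8194 had an infinite score in every list but the third 2 h list, where its percentile was 98.8.

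A list that lacked a given span mostly held a largely overlapping one or no peak, and in a smaller share of cases held shorter peaks alone. For each 1 to 10 kb peak the other lists were searched on the same strand. Peaks of 24 h lists, looked up in another 24 h list, were met by an identical span in 12.1% of cases, by a 1 to 10 kb peak sharing at least 50% of both spans in 34.6%, by peaks of at most 1000 bases alone in 15.8%, and by no peak in 35.9%. Peaks of 2 h lists, looked up in another 2 h list, met an identical span in 20.9%, a largely overlapping one in 42.0%, and no peak in 20.2%. Shorter peaks alone were met there in 14.1% to 15.9% over the 6 ordered pairs. Across the times, 40.5% of 24 h spans met no peak in a 2 h list, and 29.4% of 2 h spans met none in a 24 h list. Shorter peaks alone were found for 13.5% of 24 h spans in 2 h lists and for 20.5% of 2 h spans in 24 h lists. The other percentages are means over 6 ordered pairs of lists within a time and 9 across the times in each direction.

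Where shorter peaks alone were met, those up to 200 bases gathered at the borders of the long span. Of 9835 such peaks over the 30 ordered pairs, 50.5% had their midpoint within 250 bases of the 5′ border, 37.9% within 250 bases of the 3′ border and 11.6% in between. The outer 250 bases on both sides made up 27.8% of the length of those spans on average. In each of the 30 ordered pairs at least 81.0% of these peaks were near a border. Short peaks in lists that lacked the span thus lay mostly at its borders and seldom in its interior. The same short peak or span can enter several ordered pairs. The length is genomic and can include introns, whose part in the low interior share was not tested.

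By the deposited score, 1 to 10 kb peaks stood above short peaks in every list. Their median within-list percentile was 56.0, 58.1 and 59.5 in the 24 h lists and 61.9, 60.6 and 63.6 in the 2 h lists. For peaks up to 200 bases it was 47.7 ± 0.328 at 24 h and 46.3 ± 0.144 at 2 h (n = 3 each, SD). The lists did not overlap between the classes, and the long peaks were higher by 13.0 ± 3.46 percentile points (SD, n = 6 lists). They were higher in 6 of 6 (two-sided exact sign-flip test, p = 0.03125, and 0.03125 after adjustment over 4 comparisons of the classes). That p is the smallest that 6 lists can give. An infinite score was carried by 3.11% ± 0.465 of the 1 to 10 kb peaks and by 0.708% ± 0.140 of the peaks up to 200 bases (SD, n = 6), with 6 of 6 lists higher for the long peaks (two-sided exact sign-flip test, p = 0.03125, adjusted p = 0.03125). Peaks of more than 200 and at most 1000 bases stood higher still, and the 1 to 10 kb peaks lay 9.80 to 12.3 percentile points below them in the 6 lists. Peaks over 10 kb also stood above short peaks in every list. Their median percentile was 64.4, 65.4 and 64.4 in the 24 h lists and 64.5, 62.4 and 59.3 in the 2 h lists. Within the class the median percentile up to 2000 bases was 55.5 ± 1.43 at 24 h and 62.1 ± 2.34 at 2 h (n = 3 each, SD). From there to 5000 bases it was 60.1 ± 0.671 at 24 h and 60.7 ± 1.87 at 2 h, and above 5000 bases 59.7 ± 3.48 at 24 h and 64.4 ± 2.73 at 2 h, with n and error as before. At 24 h the shortest of these 3 span classes lay below the middle one in all 3 lists, and the times did not overlap in the shortest class. None of these differences was tested. Between its quartiles the class reached from the 32.7th to the 83.7th percentile on average. How the score depends on the length of a peak is not stated, and its part in these differences was not tested.

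**Figure D3:**
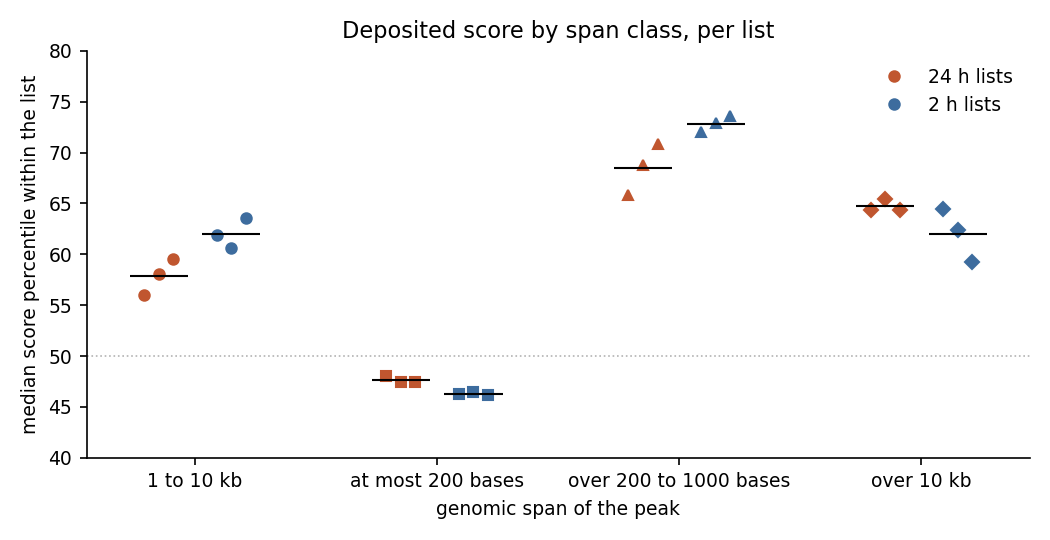
Median score percentile within the list (y axis, from 40 to 80) for 4 classes of genomic span (x axis) in the 3 lists of 24 h and the 3 lists of 2 h; symbols are lists and lines are means. The 1 to 10 kb class lies between 56.0 and 63.6, above the peaks up to 200 bases and below the peaks of 200 to 1000 bases.

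The gap in score between long and short peaks did not pass the test between the times, although the lists did not overlap. It was 7.96, 10.6 and 12.1 percentile points in the 24 h lists and 15.6, 14.2 and 17.4 in the 2 h lists. Every 24 h list lay below every 2 h list, with means of 10.2 ± 2.08 at 24 h and 15.7 ± 1.61 at 2 h (n = 3 each, SD), and the difference of -5.54 had the smallest p that 3 lists against 3 allow (two-sided exact permutation test, p = 0.1, adjusted p = 0.4). Among the top-scoring 50% of every list it was -0.534 (two-sided exact permutation test, p = 0.6).

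Along loci of neighbouring peaks the 1 to 10 kb peaks lay further towards the 5′ end than short peaks. Loci were made by joining same-strand peaks of all lists less than 2000 bases apart, and position was taken in those longer than 10000 bases, beyond any peak of the class, to which all 6 lists contributed. In these loci 569 to 684 peaks of the class per list and 10246 to 10984 short peaks per list were placed. The midpoint lay nearer the 5′ than the 3′ end of the locus for 54.2%, 54.8% and 54.4% of the 1 to 10 kb peaks in the 24 h lists and for 56.0%, 56.4% and 54.0% in the 2 h lists. For the peaks up to 200 bases the share was 33.5% ± 0.818 at 24 h and 31.4% ± 0.722 at 2 h (n = 3 each, SD). The difference of 22.5 ± 1.82 percentage points (SD, n = 6) had 1 direction in 6 of 6 lists (two-sided exact sign-flip test, p = 0.03125, adjusted p = 0.03125). Over 8 other settings it ranged from 15.4 to 28.0 points. The share of 1 to 10 kb peaks nearer the 5′ end did not separate the times, with 54.5% ± 0.269 at 24 h and 55.4% ± 1.29 at 2 h (n = 3 each, SD; two-sided exact permutation test, p = 0.4, adjusted p = 0.533), and the sign of that small difference turned without the second 2 h list (0.0443).

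The profile of the class lacked the rise at the 3′ end that short peaks had. Of the 10 equal parts of a locus, the last held 7.67% ± 0.443 of the 1 to 10 kb peaks and 32.2% ± 1.27 of the short peaks (SD, n = 6 lists). The second part held 13.5% ± 1.25 of the 1 to 10 kb peaks, their highest share, and 5.46% ± 0.418 of the short peaks. The sixth part held 6.71% ± 0.702 of the 1 to 10 kb peaks, their lowest share, and 5.61% ± 0.325 of the short peaks. The first part held 11.3% ± 0.994 of the 1 to 10 kb peaks and 10.9% ± 0.484 of the short peaks. A long peak cannot have its midpoint at the very end of a locus, which lowers both outer parts for the class. The share nearer the 5′ end treats both ends alike, but midpoints held away from the ends can bring it closer to an even split. The part of peak length in the difference from short peaks was not tested. Counted by order instead of distance, in loci with peaks in all 6 lists, 33.4% ± 0.794 of the other peaks of the same list and locus lay 5′ of a 1 to 10 kb peak on average, and 52.5% ± 0.224 lay 5′ of a short peak (SD, n = 6). The share was lower for the 1 to 10 kb peaks in 6 of 6 lists (two-sided exact sign-flip test, p = 0.03125, adjusted p = 0.03125). Locus borders are set by the peaks, and coverage by input reads and the density of exons were not used here, so their part in the position was not tested.

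**Figure D4:**
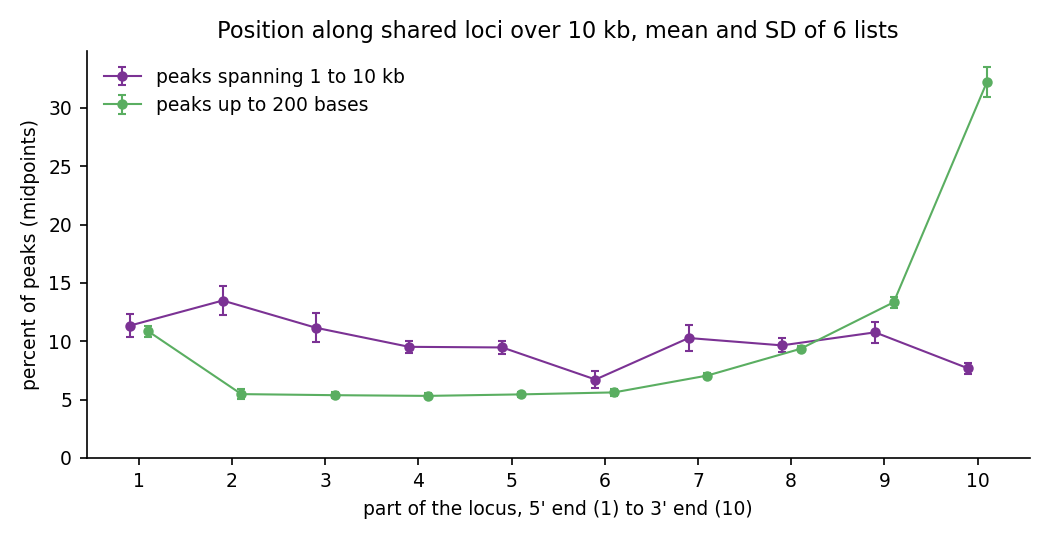
Percent of peaks (y axis, midpoints) in 10 equal parts of loci over 10 kb from the 5′ end (1) to the 3′ end (10), for 1 to 10 kb peaks and for peaks up to 200 bases; points are means and error bars SD of 6 lists. The last part holds 7.67% of the long and 32.2% of the short peaks.

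Most loci had no 1 to 10 kb peak in any list, and those that did mostly had a single one. Of 17120 loci, 4205 (24.6%) had at least 1 such peak, 524 had one in all 6 lists and 1635 in 1 list. A list that had any in a locus had exactly 1 in 89.1% of cases and at most 4. The locus with the most distinct spans, 15, lay on the plus strand of NC_049736.1 from 7300082 to 7333028, with 4, 4 and 2 members of the class in the 24 h lists and 0, 3 and 3 in the 2 h lists. The first 2 h list still had 7 peaks in that locus. On the minus strand of NC_049714.1 from 14269981 to 14293113 there were 14 distinct spans, with 3, 4 and 4 members in the 24 h lists and 3, 3 and 3 in the 2 h lists. A plus-strand locus of NC_049718.1 from 5957656 to 5972814 also had 14, with 3, 3 and 3 members at 24 h and 3, 3 and 2 at 2 h.

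Few long spans belonged to 1 time, and most that did largely overlapped a long span of the other time. Identical in 3 of 3 lists of 24 h and absent as such from all 2 h lists were 48 of the 9922 distinct spans (0.484%), and the same rule over all distinct spans of any length gave 0.356%. Identical in 3 of 3 lists of 2 h and absent from all 24 h lists were 108 (1.09%), and over all distinct spans 0.828%. The shares of the class were near those of all spans. Of the 48 spans of 24 h, 42 had a 1 to 10 kb peak in a 2 h list that shared at least 50% of both spans, in 37 cases with both borders at whole 25-base steps, and 4 had no peak at all at 2 h. Of the 108 spans of 2 h, 89 had such a counterpart at 24 h, in 80 cases at whole steps, and 1 had no peak at 24 h. With any 1 of the 24 h lists left out the 24 h count was 143 to 168, and with any 1 of the 2 h lists left out the 2 h count was 242 to 269, since 2 lists then had to agree in place of 3.

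The strongest spans of 24 h alone showed such shifts. They were named as the first 5 by their lowest score percentile, and 8 of the 48 tied because all 3 lists gave them an infinite score. On the minus strand of NC_049722.1 the span from 541556 to 545227 was identical in the 24 h lists, and the span from 541676 to 545227 was identical in the 2 h lists, so the 3′ border differed by 120 bases, not a whole number of steps, with an infinite score in all 6 lists. On the plus strand of NC_049714.1 the 24 h span ran from 10459682 to 10461279, while the 2 h lists began 220, 25 and 25 bases further in. The percentile of those 2 h peaks was 80.8, 83.1 and 84.3. On the minus strand of NC_049731.1 the 24 h span ran from 12014088 to 12015293, and the 2 h spans extended 100, 75 and 100 bases further at the 3′ border. On the minus strand of NC_049713.1 the 24 h span from 17035050 to 17036241 met 2 h peaks of 1036, 1167 and 1086 bases at percentiles of 92.0, 81.7 and 94.7. The exception was a plus-strand span of 1155 bases on NC_049722.1 from 10983973 to 10985127, with no peak in the first and second 2 h lists and a weak one, at percentile 25.2, in the third list of that time.

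The strongest spans of 2 h alone, again the first 5 of 10 tied at an infinite score, also had partners at 24 h. On the plus strand of NC_049714.1 the 2 h span from 13177946 to 13184709 covered 6764 bases. The first 24 h list had nearly the same span, 6739 bases, while the second and the third 24 h lists had peaks of 250 and 225 bases that began at the same place, 25 bases in, and also had an infinite score. In those 2 lists the place had a short peak at the 5′ border in place of the long span. On the plus strand of NC_049718.1 the 2 h span from 3762919 to 3764080 was 50 bases longer at its 3′ end than in all 3 lists of 24 h. On the minus strand of that sequence the 2 h span from 4512604 to 4517162 was 100 to 150 bases longer at its 5′ border than in the 24 h lists. On the plus strand of NC_049721.1 the 2 h span from 7542432 to 7548222 was met at 24 h by 5691 bases, and 2 of the 24 h lists had a separate short peak of 50 or 25 bases beside it. The last of these 5 was the span on NC_049722.1 given above.

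Regions with long peaks at 24 h and no peak of any kind at 2 h were more numerous than the reverse. Overlapping 1 to 10 kb peaks merged into 5395 regions, of which 510 (9.45%) had a member of the class in all 6 lists and 2653 (49.2%) in 1 list. A member in all 3 lists of 24 h and no same-strand peak of any span at 2 h was found in 70 regions (1.30%), and the reverse in 20 (0.371%). Over all merged regions of peaks of any span, a peak in 3 of 3 lists of 24 h and none at 2 h was found in 2.3%, and the reverse in 1.66%. The shares of the class and of all regions cannot be compared, because the class had to have a long peak in each list and its regions are longer. Among the top-scoring 50% of every list the counts were 67 at 24 h and 35 at 2 h, and with all lists cut to the length of the shortest by score they were 63 at 24 h and 29 at 2 h. With any 1 list of 24 h left out the 24 h count was 129 to 142, and the 2 h count was 40 to 64 with any 1 list left out. Of the 70 regions of 24 h, 43 lay in loci with no 2 h peak, and 4 of the 20 regions of 2 h lay in loci with no 24 h peak. In the list where each region scored lowest, the median percentile was 50.3 for the regions of 24 h, 24.1 for those of 2 h and 76.5 for the 510 regions of all 6 lists.

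The 3 strongest regions of 24 h lay in loci without 2 h peaks, whereas the next in rank lay in a locus with a peak in 1 of the 2 h lists. A plus-strand region of NC_049730.1 from 11916625 to 11918073 had percentiles of 98.1, 98.0 and 98.0 in the 24 h lists. A plus-strand region of NC_049711.1 from 8658787 to 8666866 had 97.8, 97.8 and 97.6, and a minus-strand region of NC_049731.1 from 2235630 to 2238097, the same span in all 3 lists, had 98.1, 97.6 and 97.9. The strongest region of 2 h was a minus-strand span of 8371 bases on NC_049736.1 from 3144863 to 3153233, identical in the 2 h lists, at percentiles of 95.8, 94.5 and 94.2. Its locus had peaks elsewhere in all 6 lists. The next regions of 2 h were weaker. The minus-strand region of NC_049720.1 from 9696293 to 9697415 had percentiles of 77.8, 68.4 and 77.4, and the plus-strand region of NC_049714.1 from 7651185 to 7652419 had 73.5, 64.4 and 62.2. Both of these also lay in loci with 24 h peaks elsewhere.

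Loci of 1 time held more of the 1 to 10 kb peaks at 24 h than at 2 h, and the same was seen for short peaks. In the 24 h lists 7.68% ± 0.0433 of them and 6.97% ± 0.0591 of the short peaks lay in loci that only 24 h lists, all 3 of them, had peaks in. In the 2 h lists 0.420% ± 0.0701 of them and 0.222% ± 0.00724 of the short peaks lay in loci of 2 h alone (n = 3 each, SD). A lower share of the class than of short peaks fell in loci shared by all 6 lists, 75.5% ± 1.41 against 83.7% ± 0.892 at 24 h, and 88.1% ± 1.26 against 93.2% ± 0.905 at 2 h (n = 3 each, SD).

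The class was unevenly spread over the genome. Of the 31 sequences with at least 3000 peaks over all lists, the median share of 1 to 10 kb peaks was 3.47%. It was 10.4% on NC_049740.1 and on NC_049738.1, 8.77% on NC_049735.1, 6.95% on NC_049737.1, 5.58% on NC_049736.1, 5.56% on NC_049733.1 and 5.12% on NC_049739.1. On NC_049740.1 the share was 11.2%, 10.3% and 9.83% in the 24 h lists and 10.3%, 10.2% and 10.4% in the 2 h lists. On NC_049738.1 it was 10.5%, 9.71% and 9.35% in the 24 h lists and 11.6%, 11.2% and 9.87% in the 2 h lists. On NC_049737.1 it was 7.72%, 7.73% and 6.62% in the 24 h lists and 6.87%, 6.97% and 5.50% in the 2 h lists. The lists of the times overlapped on each of these 3 sequences. On NC_049713.1, the lowest of the 31, it was 2.68%. In no list did any of the 24 sequences outside these 7 reach more than 5.60%, and in no list did any of the 7 fall below 3.91%. These 7 sequences held 22.2% of the class, 2783 of 12509 peaks, and 37476 of the 331440 peaks of all spans. Next in order was NC_049732.1 with 4.92%, so no wide gap set the 7 apart. The last peak ended at 8.39 to 13.4 Mb on them and at 11.6 to 22.3 Mb on the other 24, so they include the shortest of the set. Their share of peaks up to 200 bases was lower, 75.1% to 81.1% against 81.3% to 89.1%. The density of the class, 3.67 to 10.3 peaks per Mb and list on the 7, overlapped that on the other 24, 2.41 to 5.18. The long peaks of NC_049740.1 and NC_049738.1 were shorter than most, with medians of 1665 and 1667 bases, and weaker, with median percentiles of 44.2 and 39.3. The 7 sequences were picked after their values were seen, and no test was made.

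**Figure D5:**
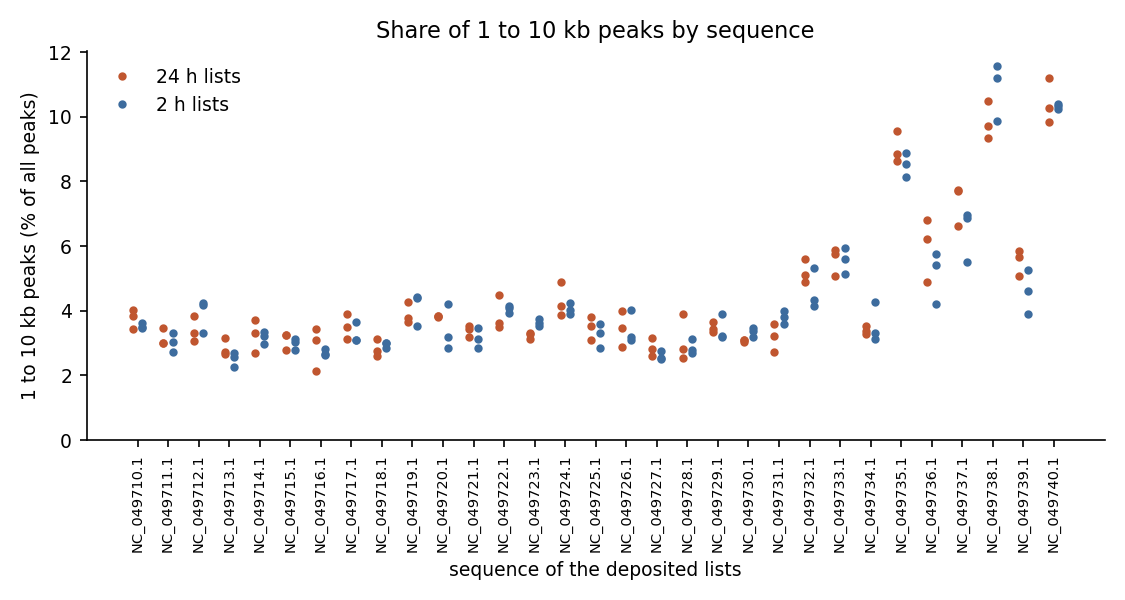
Peaks spanning 1 to 10 kb as a percent of all peaks (y axis) on each of the 31 sequences with at least 3000 peaks (x axis, in order of sequence name); points are the 3 lists of 24 h and the 3 lists of 2 h. NC_049740.1 and NC_049738.1 reach 9.35% to 11.6% at both times, and most of the other sequences stay below 5%.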

How the data were processed

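Per the labels' protocols, RNA of frozen embryos was extracted with Trizol, selected on oligo(dT) beads, fragmented and divided between capture with an m6A antibody and an uncaptured input, and libraries were sequenced on an Illumina NovaSeq instrument. The submitters' processing notes name HISAT2 2.1.0, Bowtie2 2.2.5, fastp 0.20.0 and HOMER without roles. Peak caller, threshold and build were not given in the sources used here. Each of the 6 lists belongs to 1 sample. The score is the authors' deposited value per peak, of unstated scale and infinite for some peaks.

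Members, lists and tests were chosen with earlier results of these data known. Peaks were ranked by score within a list. Spans named were the first 5 by lowest percentile (identical in 6 lists, at 24 h only, at 2 h only), the 3 loci richest in distinct spans and the first 3 one-time regions per time, ties going by sequence name and start. The tests on infinite scores and on order within loci were added after the data were seen. Comparisons used two-sided exact permutation tests (3 lists against 3) and sign-flip tests (6 lists), with Benjamini-Hochberg adjustment over 4 tests each. The 6 lists share many peaks, so the values of a sign-flip test are not independent. The functions were tested on simulated data. The mitochondrial gene name came from RefSeq. Python 3.11.15, numpy 2.4.6, pandas 2.3.3 and matplotlib 3.10.9 were used.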

Additional observations from a re-analysis of the deposited data

How the results depend on the processing

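The deposited lists give no depth, so thresholds could be varied only by score. Leaving out peaks of 75 bases, tried after the data were seen, made the score gap between the times -8.07. Among the top-scoring 50% of every list the 24 h minus 2 h difference in share was -0.202 percentage points (0.0947 in the whole lists), 41.7% of the class recurred exactly (35.3% in the whole lists), and 2 h-only regions numbered 35 (20 in the whole lists). With 50% of both spans as a repeat, 78.4% recurred. Under that rule 115 places were of 24 h alone (48 identical spans) and 122 of 2 h alone (108 identical spans). Asking for 2 of 3 lists instead of all 3 gave 381 and 548 identical spans and 258 and 126 regions at 24 h and 2 h. Leaving out 1 list in turn gave 29.7% to 33.5% exact recurrence, 53 to 168 and 121 to 269 identical spans and 77 to 142 and 40 to 64 regions of 24 h and 2 h alone. Where the list left out was of the time counted, 2 lists had to agree in place of 3. Leaving out 1 list in turn also gave a score difference to short peaks of 12.1 to 14.0 and a difference of 21.0 to 22.8 points in the share nearer the 5′ end, with p = 0.0625 in the exact sign-flip test, the smallest that 5 lists allow. The difference between the times in that share ran from -1.84 to 0.0443, the last without the second 2 h list.

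Same-numbered lists of the times did not deviate together (correlations of -0.00477, 0.0150 and -0.0120 over 5395 regions). Lists of different number had correlations of -0.0155 to 0.0209, and not every list correlated best with its own number. Whether samples of the same number were collected or processed together cannot be told from these values. With the replicate block the difference in number was 204 and in share 0.0947 (exact sign-flip test, p = 0.25 and 0.5). In score gap it was -5.54 and in the share nearer the 5′ end -0.965 (exact sign-flip test, p = 0.25 and 0.5). The smallest p that 3 pairs allow is 0.25, so no difference could pass with the block.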
